A study of Mus musculus with 10 samples.

Results

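The 10 genes described here carry or control the movement of salt, bicarbonate and water across the colon epithelium, and they were taken by name from the 16875 gene names of an expression table of mouse colon tumors. All 10 were in the table: Slc26a3, Car1, Car2, Car4, Aqp8, Slc9a3, Scnn1a, Cftr, Slc12a2 and Guca2a. The colonocyte, the absorptive cell of the colon, takes up sodium through a sodium-proton exchanger and an epithelial sodium channel, takes up chloride in exchange for bicarbonate that carbonic anhydrases supply, and lets water follow. Secretion runs the other way: a cotransporter in the basolateral membrane loads the cell with chloride, and a channel in the apical membrane releases it into the lumen. Guanylin, a peptide secreted into the lumen, shifts this balance toward secretion through a receptor that makes cyclic GMP.

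The tumors had been induced with azoxymethane (AOM), a colon carcinogen, followed by cycles of dextran sulfate sodium (DSS), which injures the colon lining. Messenger RNA of 5 control tumors (labelled Wls WT) and 5 Villin-WlscKO tumors (Villin-CreERT2 with Wls flox/flox) was sequenced. The aim was to ask what the loss of Wls, the carrier protein that Wnt ligands need for secretion, changes in tumors that had already formed. The study calls these controls wild type, and gives Wls flox/flox as the control genotype of its tumor organoids. The mice were of C57BL/6 background and 6 to 10 weeks old at the start, and each sample was RNA of a whole tumor cut from the colon. The Villin promoter drives CreERT2 in intestinal epithelium, tumor epithelium included, and tamoxifen, which activates CreERT2, was first given 30 days before collection. The study gives tumors without tamoxifen as its usual control, so genotype and tamoxifen cannot be told apart here. How many mice the tumors came from was not given in the sources used, and p-values therefore measure the spread between these tumors, which may in part be shared between tumors of a mouse.

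Values were FPKM, sequenced fragments scaled to transcript length and to the mapped fragments of the sample, so that genes could be compared per length. Wls was 72.9 ± 7.06 FPKM (SD, n = 5) in control tumors and 6.37 ± 4.89 (n = 5) in Villin-WlscKO tumors, and no tumor went against its label. The groups also differed in sex: Xist, transcribed from the inactive X chromosome of females, was at most 0.42 FPKM in control and at least 439 in Villin-WlscKO tumors, and Eif2s3y, a gene of the Y chromosome, was at least 30.4 in control and at most 0.138 in Villin-WlscKO tumors. Sex, genotype and tamoxifen cannot be told apart in any comparison below. The 10 markers of colon epithelium summed to between 6714 and 9743 FPKM in control and between 8485 and 12140 in Villin-WlscKO tumors, and their log2 changes were all above 0, with a median of 0.36 and 1 of 10 past the threshold (Krt20, log2 change 0.91, limma adjusted p = 0.0156). Of all genes tested, 51.4% had a log2 change above 0 and 6.12% were called higher. Villin-WlscKO tumors 2 and 3 stood apart: 6 markers of stratified squamous epithelium summed to 968 and 1247 FPKM in them and to between 11.2 and 181 in the other 8 tumors. They also held more Wls, 11.6 and 11.7 FPKM, than the other Villin-WlscKO tumors, at 2.03 to 3.61 FPKM. Where leaving out both tumors changed a call, the value without them is given as well.

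Across the 10 genes, Slc12a2 alone passed the test, and it rose in Villin-WlscKO tumors. Differences were tested with limma on log2(FPKM + 1) over 16757 genes, with a Benjamini-Hochberg adjusted p under 0.05 as the threshold, and a log2 change below is the difference of the group means on that scale, Villin-WlscKO minus control, which understates the change of genes with low FPKM. The count of 1 of 10 higher and 0 of 10 lower stands beside 6.12% of all genes tested that were called higher and 4.75% that were called lower. The log2 change was above 0 for 8 of the 10 genes, compared with 51.4% of all genes, and its median was 0.72 against 0.0073 over all genes. When tumors were centred on the colon epithelium markers, 7 of the 10 were above 0, since Scnn1a turned below it. That centring moved the median of all genes to -0.40, and the share of all genes above 0 was not counted with it. At an unadjusted p under 0.05 the count was 5 of the 10 genes, beside 25.7% of all genes. Because each sample was a bulk tumor, a larger or smaller number of colonocytes and more or less RNA per colonocyte cannot be told apart.

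**Figure D1:**
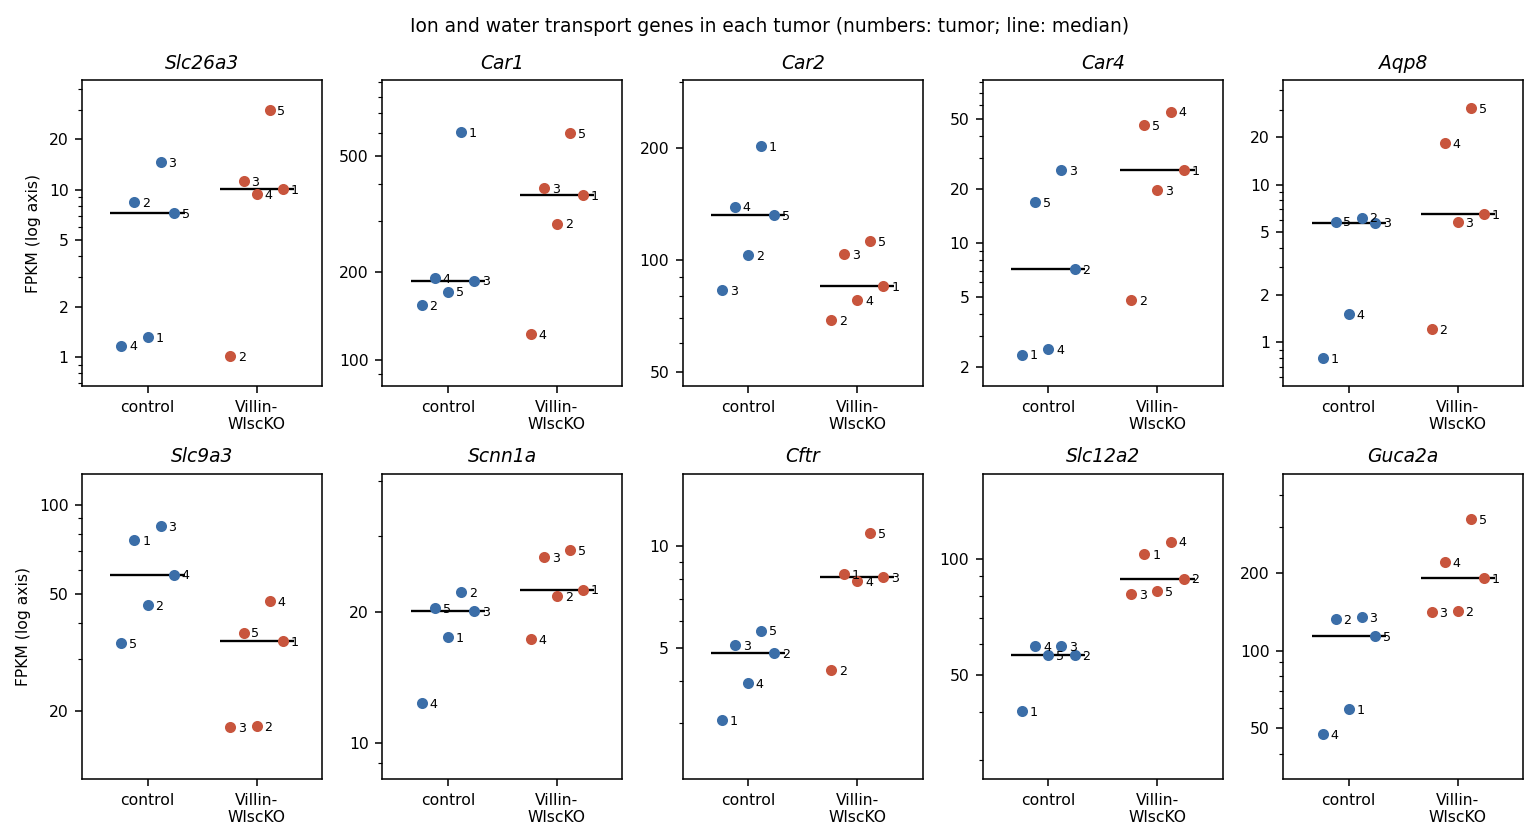
FPKM of each of the 10 transport genes (y axis, log scale, a scale of its own for each gene) in the 5 control and 5 Villin-WlscKO tumors (points, numbered by tumor; line, group median). The groups are apart for Slc12a2 and Guca2a, whereas Slc26a3, Car4 and Aqp8 are low in control tumors 1 and 4 and in Villin-WlscKO tumor 2.

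Among the genes of chloride secretion, Slc12a2 (chr18:57878678-57946821, plus strand, positions of GENCODE M21 on GRCm38) encodes the sodium-potassium-chloride cotransporter NKCC1, which brings chloride into the cell from the blood side. Its level was 40.2, 56.2, 59.3, 59.2 and 56.2 FPKM in control tumors 1 to 5 and 103, 88.7, 81.0, 111 and 82.5 FPKM in Villin-WlscKO tumors 1 to 5. Each Villin-WlscKO tumor was above each control tumor, and control tumor 1 lay below the narrow range of the other control tumors. The mean was 54.2 ± 8.01 in control and 93.2 ± 13.1 in Villin-WlscKO tumors (SD, n = 5 each), a log2 change of 0.77 with a standard error (SE) of 0.13 and a limma adjusted p of 0.00389. An exact two-sided permutation test over the 252 arrangements of the tumors gave p = 0.00794, the smallest it can give. The groups did not overlap, higher in Villin-WlscKO, for 2 of the 10 genes, Slc12a2 and Guca2a, beside 5.33% of all genes tested. Without Villin-WlscKO tumors 2 and 3 the log2 change of Slc12a2 was 0.86 (limma adjusted p = 0.014). Each tumor was also centred on its mean over the colon epithelium markers, a scaling chosen after the data were seen that shifts the median of all genes to -0.40. The log2 change of Slc12a2 was then 0.36 and the limma adjusted p was 0.163. The markers themselves had uneven log2 changes, 0.13 for Cdh1 and Krt18 and 0.17 for Epcam, but 0.75 for Cdx2 and 0.91 for Krt20. The centring therefore also takes out what differed between the groups in these markers, and is not a measure of epithelial content alone.

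Cftr (chr6:18170687-18322768, plus strand) encodes the apical chloride channel through which the chloride loaded by NKCC1 leaves the cell. It measured 3.07, 4.82, 5.10, 3.95 and 5.63 FPKM in control tumors 1 to 5 and 8.30, 4.30, 8.13, 7.89 and 10.9 FPKM in Villin-WlscKO tumors 1 to 5. All Villin-WlscKO tumors but tumor 2 were above every control tumor. Means were 4.51 ± 1.01 and 7.91 ± 2.37, the log2 change was 0.67 (SE 0.21), and the limma adjusted p of 0.072 missed the threshold, while the exact permutation test gave p = 0.0317. Leaving out Villin-WlscKO tumor 2 took the log2 change to 0.84 and the limma adjusted p to 0.0112, and leaving out tumor 3 as well gave 0.87 and 0.027. Leaving out any other single tumor kept the limma adjusted p above the threshold, at up to 0.142. Centring on the epithelial markers gave a log2 change of 0.26 and a limma adjusted p of 0.32. A pseudogene on the same strand and an antisense gene overlap Cftr in GENCODE M21, and whether strand was used in the counting was not given in the sources used here, so their reads may be part of its value.

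Guca2a (chr4:119637704-119639471, plus strand), the gene of guanylin, was the most abundant of the 10 genes after Car1 in Villin-WlscKO tumors. Control tumors 1 to 5 held 59.6, 133, 134, 47.7 and 114 FPKM, and Villin-WlscKO tumors 1 to 5 held 191, 143, 141, 221 and 322 FPKM. The groups did not overlap, but the gap was narrow, since Villin-WlscKO tumors 2 and 3 lay just above control tumors 2 and 3, and control tumors 1 and 4 lay far below the rest. The mean was 97.7 ± 41.2 in control and 203.5 ± 74.6 in Villin-WlscKO tumors, with a log2 change of 1.10, a standard error of 0.34 and a limma adjusted p of 0.0628, above the threshold, while the exact permutation test gave its smallest value, p = 0.00794. Without control tumor 3 the limma adjusted p was 0.0475, with a log2 change of 1.25. Leaving out any other single tumor kept it above the threshold, at up to 0.128. Centring on the epithelial markers gave a log2 change of 0.69 and a limma adjusted p of 0.074.

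The other genes of the guanylin pathway that were listed were the second ligand, the receptor, a kinase and a phosphodiesterase. Guca2b encodes uroguanylin, the related peptide, and rose from 20.3, 31.3, 20.98, 18.0 and 21.3 FPKM in control tumors 1 to 5 to 40.6, 47.5, 40.6, 31.2 and 34.3 FPKM in Villin-WlscKO tumors 1 to 5, with an overlap of control tumor 2 and Villin-WlscKO tumor 4 only. Its log2 change of 0.78 (SE 0.15) had a limma adjusted p of 0.00973, which became 0.0612 without Villin-WlscKO tumors 2 and 3 and 0.131 with the epithelial centring (log2 change 0.37). Gucy2c encodes guanylyl cyclase C, the receptor of both peptides, and also rose. Its level was 13.7, 16.3, 19.9, 10.5 and 17.1 FPKM in control tumors and 25.4, 18.8, 28.6, 35.5 and 34.4 FPKM in Villin-WlscKO tumors, in the same order. Here Villin-WlscKO tumor 2 was below control tumor 3, and the log2 change of 0.83 (SE 0.20) had a limma adjusted p of 0.0228. Leaving out control tumor 1 or Villin-WlscKO tumor 3, 4 or 5 raised the limma adjusted p of Gucy2c to between 0.0505 and 0.0542, and the epithelial centring raised it to 0.0817 (log2 change 0.43). Prkg2, the cyclic GMP-dependent kinase that acts on Cftr and on the sodium-proton exchanger, was 24.7 ± 7.77 FPKM in control and 20.02 ± 4.13 in Villin-WlscKO tumors (log2 change -0.24, 95% interval -0.80 to 0.33, limma adjusted p = 0.62). Pde5a, which breaks down cyclic GMP, had a log2 change of -0.25 (limma adjusted p = 0.316).

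**Figure D2:**
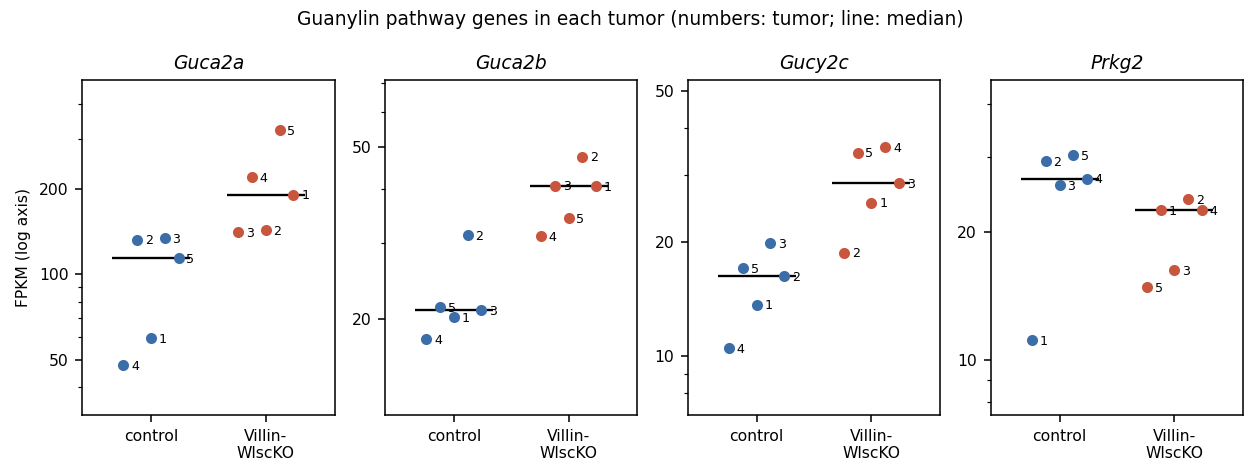
FPKM of guanylin (Guca2a), uroguanylin (Guca2b), their receptor (Gucy2c) and the kinase Prkg2 (y axis, log scale) in each numbered tumor, with the group median as a line. The ligands and the receptor sit higher in Villin-WlscKO tumors, with overlap between the groups for Guca2b and Gucy2c, and the Prkg2 values of the groups overlap.

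Goblet cell markers moved with the same groups: 7 markers summed to between 2616 and 12090 FPKM in control tumors and to between 23130 and 28440 in Villin-WlscKO tumors. Of the 7, 4 were called higher, beside 6.12% of all genes tested. Spink4 made up most of the sums, with group means of 6063 and 21080 FPKM, and the values of Fcgbp, Tff3 and Zg16 overlapped between the groups. Their part in the values of the secretory and guanylin genes was not tested.

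On the absorptive side, Slc9a3 (chr13:74121457-74169442, plus strand) encodes NHE3, the apical exchanger that takes up sodium against protons. It was the gene of the 10 with the largest log2 change below 0. Control tumors 1 to 5 held 75.9, 45.7, 85.0, 58.1 and 33.98 FPKM, and Villin-WlscKO tumors 1 to 5 held 34.6, 17.8, 17.7, 47.2 and 37.0 FPKM. The lowest values were those of the squamous-rich Villin-WlscKO tumors 2 and 3, and the other Villin-WlscKO tumors lay within the lower part of the control range. Means of 59.8 ± 21 and 30.9 ± 12.9 gave a log2 change of -0.96 with a standard error of 0.32 and a limma adjusted p of 0.0883, and the exact permutation test gave p = 0.0556. Without Villin-WlscKO tumors 2 and 3 the log2 change was -0.52 (limma adjusted p = 0.321), whereas centring on the epithelial markers took it to -1.37 (limma adjusted p = 0.00802).

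Scnn1a (chr6:125320659-125344943, plus strand) encodes the alpha subunit of the epithelial sodium channel, which absorbs sodium in the distal colon under the control of aldosterone. Over all 10 tumors its highest value was 2.25 times the lowest, the smallest such ratio of the 10 genes. Within each group Slc12a2 had a smaller ratio. Scnn1a was 17.5, 22.3, 20.1, 12.4 and 20.5 FPKM in control tumors 1 to 5 and 22.5, 21.7, 26.7, 17.3 and 27.8 FPKM in Villin-WlscKO tumors 1 to 5. The groups overlapped, with control tumor 4 lowest of all. Its log2 change of 0.32 had a 95% interval from -0.05 to 0.69 and a limma adjusted p of 0.27, and it turned to -0.092 when tumors were centred on the epithelial markers.

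The levels of Slc12a2 and Slc9a3 were also compared within each tumor, since a ratio within a tumor does not depend on the scaling between tumors. The ratio of Slc12a2 to Slc9a3 in FPKM was 0.529, 1.23, 0.698, 1.02 and 1.65 in control tumors 1 to 5 and 2.98, 4.98, 4.58, 2.34 and 2.23 in Villin-WlscKO tumors 1 to 5. Every Villin-WlscKO tumor was above every control tumor, as was already so for Slc12a2 alone. The ratio was chosen after the values of both genes were seen and is given without a test.

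Slc26a3 (chr12:31390871-31473917, plus strand), known as down-regulated in adenoma, encodes the apical exchanger that absorbs chloride and releases bicarbonate. Its values were 1.31, 8.42, 14.7, 1.17 and 7.24 FPKM in control tumors 1 to 5 and 10.02, 1.01, 11.2, 9.35 and 30.0 FPKM in Villin-WlscKO tumors 1 to 5. Control tumors 1 and 4 and Villin-WlscKO tumor 2 were near 1 FPKM, and the other 7 tumors were at 7.24 FPKM or above. The means of 6.56 ± 5.62 and 12.3 ± 10.7 did not differ beyond the spread within the groups, with a log2 change of 0.77, a 95% interval from -0.90 to 2.44 and a limma adjusted p of 0.58. A pseudogene on the same strand overlaps Slc26a3 in GENCODE M21, and its reads may be counted with it.

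Aqp8 (chr7:123462291-123468004, plus strand), a water channel of surface colonocytes, showed the same tumors at the bottom. Control tumors 1 to 5 held 0.795, 6.20, 5.76, 1.51 and 5.85 FPKM, and Villin-WlscKO tumors 1 to 5 held 6.501, 1.22, 5.83, 18.3 and 30.7 FPKM. Only Villin-WlscKO tumors 1, 4 and 5 were above all control tumors, and tumors 4 and 5 were well above the rest. Aqp8 varied most of the 10 genes, with a highest value 38.6 times the lowest, and its log2 change of 1.11 had a 95% interval from -0.43 to 2.64 and a limma adjusted p of 0.355.

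Car4 (chr11:84957786-84966044, plus strand) encodes the carbonic anhydrase that is anchored to the outer face of the apical membrane, where it serves bicarbonate exchange. It had the largest log2 change of the 10 genes. Control tumors 1 to 5 held 2.36, 7.10, 25.7, 2.54 and 17.0 FPKM, and Villin-WlscKO tumors 1 to 5 held 25.8, 4.76, 19.9, 54.8 and 46.0 FPKM. The ranges overlapped widely, from control tumor 3 at the level of Villin-WlscKO tumor 1 to Villin-WlscKO tumor 2 below control tumor 2. Means were 10.9 ± 10.2 and 30.2 ± 20.2, and the log2 change of 1.502 had a standard error of 0.74, a 95% interval from -0.13 to 3.13 and a limma adjusted p of 0.232. The exact permutation test gave p = 0.103. Without Villin-WlscKO tumors 2 and 3, the log2 changes of Slc26a3, Aqp8 and Car4 were 1.42, 1.94 and 2.27, and their limma adjusted p were 0.289, 0.104 and 0.102.

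Car1 (chr3:14766216-14808368, minus strand) and Car2 (chr3:14886273-14900770, plus strand) encode cytosolic carbonic anhydrases, which make bicarbonate from carbon dioxide in colonocytes and are also present in red blood cells. Car1 was 606, 154, 188, 192 and 172 FPKM in control tumors 1 to 5 and 369, 294, 390, 123 and 598 FPKM in Villin-WlscKO tumors 1 to 5. Control tumor 1 was far above the other control tumors, of which each lay below all Villin-WlscKO tumors but tumor 4. With means of 262 ± 193 and 355 ± 172, its log2 change of 0.48 had a 95% interval from -0.53 to 1.5 and a limma adjusted p of 0.565. Without control tumor 1 the log2 change of Car1 was 0.84 (limma adjusted p = 0.212).

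Car2 went the other way, at 202, 103, 83.0, 139 and 132 FPKM in control tumors 1 to 5 and 85.2, 68.8, 104, 78.0 and 112 FPKM in Villin-WlscKO tumors 1 to 5. Control tumor 1 was again highest, and the groups overlapped between 83.0 and 112 FPKM. Its log2 change of -0.51 (SE 0.22) had a limma adjusted p of 0.182, and centring on the epithelial markers gave -0.92 (limma adjusted p = 0.0109). Control tumor 1, the highest tumor for both genes, also had the highest sum of 5 erythrocyte markers, 905 FPKM, against 156 to 545 FPKM in the other 9 tumors. Other tumors did not follow this order. Villin-WlscKO tumor 4 had the next highest sum, 545 FPKM, with the lowest Car1 value and 78.0 FPKM of Car2. Villin-WlscKO tumor 5 had a sum of 202 FPKM with 598 FPKM of Car1. The part of red blood cells in the Car1 and Car2 values was not tested. A pseudogene on the same strand lies within Car1 in GENCODE M21, and its reads may be counted with it.

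**Figure D3:**
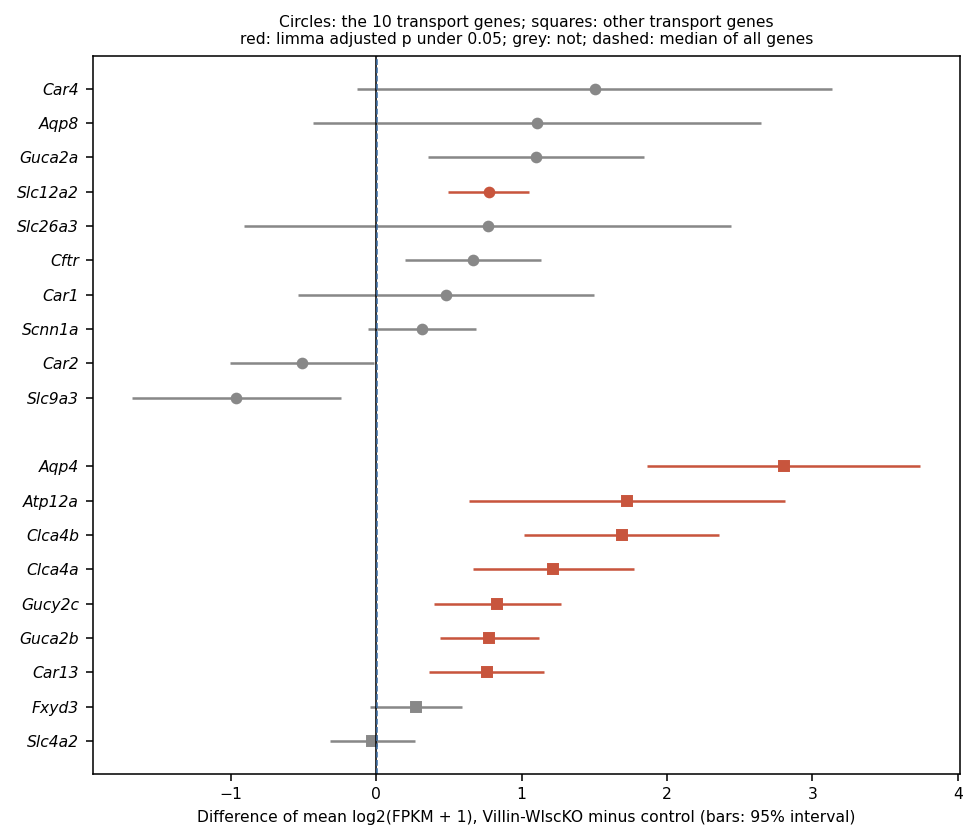
Log2 change, the control mean of log2(FPKM + 1) subtracted from the Villin-WlscKO mean (x axis), with its 95% interval, for the 10 transport genes (circles) and 9 other transport genes (squares); red marks a limma adjusted p under 0.05 and the dashed line is the median of all genes. Slc12a2 is the red circle, at 0.77, and the widest intervals are those of Slc26a3, Car4 and Aqp8.

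Ordered by mean level, Car1 was highest in both groups, at 262 and 355 FPKM. In control tumors Car2 (132 FPKM), Guca2a (97.7), Slc9a3 (59.8) and Slc12a2 (54.2) followed, and after a gap without overlap between tumors came Scnn1a (18.5), Car4 (10.9), Slc26a3 (6.56), Cftr (4.51) and Aqp8 (4.02). In Villin-WlscKO tumors the order was Guca2a (203.5 FPKM), Slc12a2 (93.2), Car2 (89.7), Slc9a3 (30.9), Car4 (30.2), Scnn1a (23.2), Aqp8 (12.5), Slc26a3 (12.3) and Cftr (7.91). There the ranges of neighbours were apart only between Guca2a and Slc12a2 and between Car2 and Slc9a3, and all other neighbours in either order overlapped. Slc9a3 stood above Slc12a2 by mean in control tumors and below it, without overlap, in Villin-WlscKO tumors.

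The spread over the 10 tumors differed between the genes. The highest of the 10 tumors was 29.8 times the lowest for Slc26a3, 23.2 times for Car4 and 38.6 times for Aqp8, and between 2.25 times (Scnn1a) and 6.76 times (Guca2a) for the other 7 genes. For Slc26a3, Car4, Aqp8 and Cftr, the 3 lowest values were those of control tumors 1 and 4 and Villin-WlscKO tumor 2. Those 3 tumors reached at most 1.31 FPKM of Slc26a3, 4.76 of Car4, 1.51 of Aqp8 and 4.30 of Cftr, and the lowest of the other 7 tumors held 7.24, 7.10, 5.76 and 4.82 FPKM. The same tumors were the 3 lowest for 6 of 44 other transport genes (13.6%) and for 337 of 16757 genes (2.01%). The 6 genes were Hsd11b2, which inactivates glucocorticoids in aldosterone target cells, Nr3c2, the aldosterone receptor, Scnn1b and Scnn1g, the beta and gamma subunits of the sodium channel, Slc5a8, an uptake carrier of short-chain fatty acids, and Best2, an anion channel. Hsd11b2 was between 10.5 and 15.1 FPKM in the 3 tumors and between 27.8 and 59.6 in the others. This pattern was noticed after the values were seen and is a description without a test, since it crosses the groups.

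**Figure D4:**
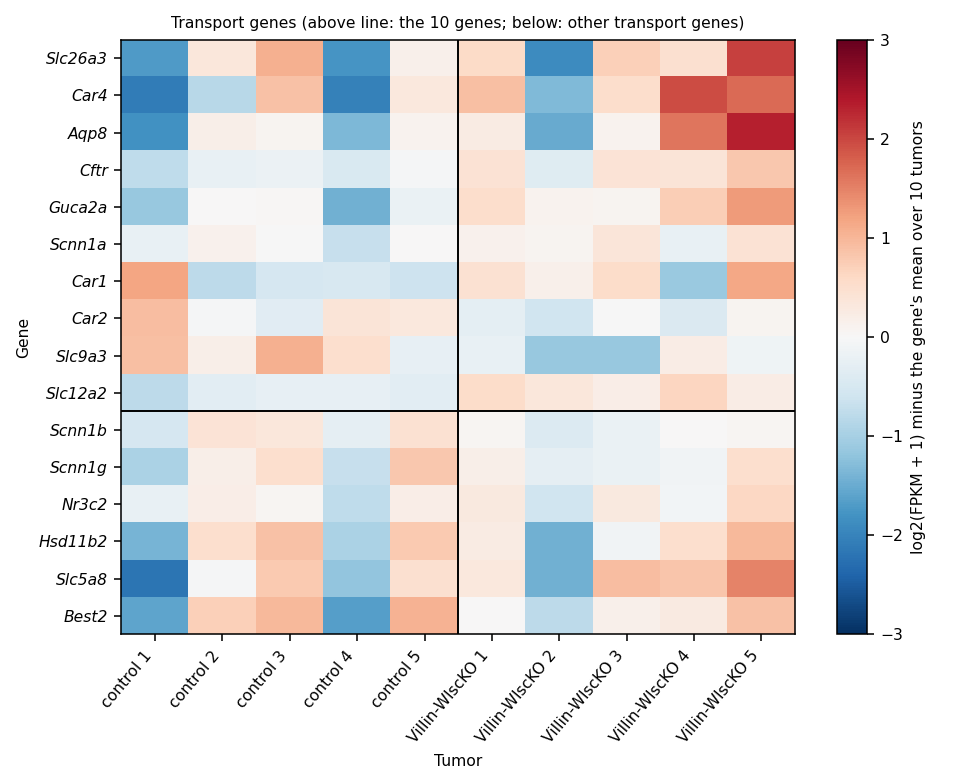
log2(FPKM + 1) minus the gene's mean over the 10 tumors (color, from -3 to 3) for the 10 transport genes (above the line) and 6 other transport genes (below it) in each tumor; the vertical line separates the groups. The columns of control tumors 1 and 4 and Villin-WlscKO tumor 2 are blue for Slc26a3, Car4 and Aqp8. For the genes below the line they also lie below the gene's mean, but the blue is pale for some, such as Scnn1b. The Slc12a2 row changes color at the vertical line.

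The promoters of Slc26a3, Car4, Aqp8 and Cftr are shown because these genes were low in the same 3 tumors, and that of Slc9a3 because its log2 change had the other sign. The sequences are RefSeq promoters on GRCm38.p6, each from 250 bases before the RefSeq start to 50 bases after it, and the table held 6 of the 10 genes. Capitals mark letters known from promoters: the TATA box (TATAAA), the half-site of the factor HNF1 (GTTAAT) and the GC box (GGGCGG, on either strand). They lie at chr12:31437969-31438268 (Slc26a3), chr11:84957504-84957803 (Car4), chr7:123462044-123462343 (Aqp8), chr6:18170437-18170736 (Cftr) and chr13:74121163-74121462 (Slc9a3), all on the plus strand, and the RefSeq start of Slc26a3 lies inside the longer GENCODE gene.
Slc26a3: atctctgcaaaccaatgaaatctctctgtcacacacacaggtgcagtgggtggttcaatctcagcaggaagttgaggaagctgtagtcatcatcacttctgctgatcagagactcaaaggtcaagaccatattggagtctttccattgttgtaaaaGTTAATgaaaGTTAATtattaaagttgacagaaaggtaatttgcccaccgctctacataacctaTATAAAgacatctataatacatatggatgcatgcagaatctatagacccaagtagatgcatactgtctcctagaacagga
Car4: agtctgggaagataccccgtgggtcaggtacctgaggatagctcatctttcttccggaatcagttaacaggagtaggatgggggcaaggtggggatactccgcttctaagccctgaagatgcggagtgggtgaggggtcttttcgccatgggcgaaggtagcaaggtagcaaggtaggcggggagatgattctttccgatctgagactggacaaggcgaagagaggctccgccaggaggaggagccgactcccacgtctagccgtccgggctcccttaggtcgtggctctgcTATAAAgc
Aqp8: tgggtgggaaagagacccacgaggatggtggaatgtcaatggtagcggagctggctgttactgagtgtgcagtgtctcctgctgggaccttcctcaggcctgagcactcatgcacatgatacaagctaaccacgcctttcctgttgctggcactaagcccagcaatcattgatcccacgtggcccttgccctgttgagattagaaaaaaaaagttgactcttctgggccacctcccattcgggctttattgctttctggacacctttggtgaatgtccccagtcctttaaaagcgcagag
Cftr: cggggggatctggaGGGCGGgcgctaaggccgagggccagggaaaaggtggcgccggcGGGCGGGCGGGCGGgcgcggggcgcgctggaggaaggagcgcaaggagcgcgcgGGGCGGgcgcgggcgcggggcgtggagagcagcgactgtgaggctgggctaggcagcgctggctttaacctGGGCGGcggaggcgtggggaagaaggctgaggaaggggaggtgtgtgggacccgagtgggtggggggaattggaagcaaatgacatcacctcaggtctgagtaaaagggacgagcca
Slc9a3: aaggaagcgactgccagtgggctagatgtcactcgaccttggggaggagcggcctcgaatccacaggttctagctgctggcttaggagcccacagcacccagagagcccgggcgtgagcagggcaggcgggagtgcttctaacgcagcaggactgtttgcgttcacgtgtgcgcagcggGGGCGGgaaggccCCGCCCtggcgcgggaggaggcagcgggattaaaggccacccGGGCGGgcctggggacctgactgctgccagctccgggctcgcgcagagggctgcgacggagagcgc

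Of the 5 promoters, Slc26a3 was the poorest in G and C, at 39.3%, and Cftr the richest, at 71.3%, with 68.7% for Slc9a3, 57.3% for Car4, 52.0% for Aqp8 and a median of 52.7% over all 32851 RefSeq promoters. The Slc26a3 window held a TATA box starting at -30 from the start and HNF1 half-sites at -94 and -84. The Slc9a3 window held no TATA box and 3 GC boxes, at -71, -58 and -16. The Cftr window, of a gene low in the same tumors as Slc26a3, likewise held no TATA box and 6 GC boxes. In Car4 the same TATA letters lay after the start, at 43, and the Aqp8 window held none of the motifs searched. TATAAA was present on either strand in 13.6% of all promoters, GTTAAT in 7.10% and GGGCGG in 35.7%, and these 3 motifs were chosen after the sequences were seen. ATCAAAG (TCF/LEF), CAAAGTCCA (HNF4) and TTTATG (CDX), searched on both strands, were in 3.73%, 0.475% and 11.9% of all promoters and in 0 of the 6 promoters of the transport genes. The TATA letters and the other strand of the CDX letters are alike, but no stretch matches both. The matches describe the letters of these windows and are not binding sites.

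Beyond the 10 genes, 44 of 49 listed genes of colon transport were tested with limma, and 7 rose and 0 fell, beside the 6.12% and 4.75% of all genes called higher and lower. The other 5 were not analysed here. By role, 0 of 16 genes of sodium absorption (1 at an unadjusted p under 0.05), 1 of 9 genes of anion, bicarbonate and short-chain fatty acid transport, 3 of 11 channels and pumps, 1 of 4 water channels and 2 of 4 guanylin pathway genes rose. Log2 changes were above 0 for 32 of the 44, beside 51.4% of all genes, with a median of 0.21 against 0.0073. Higher without overlap between the groups were 4 of the 44, beside 5.33% of all genes tested. Among the 44, 15 had an unadjusted p under 0.05, beside 25.7% of all genes. Without Villin-WlscKO tumors 2 and 3 the count that rose was 5 of 44, and with tumors centred on the epithelial markers it was 5 with 4 that fell. The centring moved the median log2 change of all genes to -0.40, and the share of all genes called with it was not counted.

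The largest of these changes was that of Aqp4, a water channel of the basolateral membrane. Control tumors 1 to 5 held 0.884, 3.45, 9.22, 3.52 and 5.07 FPKM, and Villin-WlscKO tumors 1 to 5 held 19.9, 19.8, 45.1, 39.8 and 46.3 FPKM. Every Villin-WlscKO tumor was far above every control tumor, and Villin-WlscKO tumor 2 was not among the low tumors as it was for Aqp8. Its log2 change reached 2.80 (SE 0.42, limma adjusted p = 0.00256), and 2.86 without Villin-WlscKO tumors 2 and 3 (limma adjusted p = 0.0144).

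Fxyd3, of a family of ion transport regulators and the most abundant gene of the sodium list, was 534 ± 41.5 and 657.5 ± 145 FPKM (log2 change 0.27, limma adjusted p = 0.263). Clca4a and Clca4b, of a family named as calcium-activated chloride channel regulators, had log2 changes of 1.22 and 1.69 with limma adjusted p of 0.0119 and 0.00621. They are paralogs that may share reads, so the split between them is uncertain. Clca4b was the most abundant gene of the channel list, at 117.5 ± 54.3 FPKM in control and 372 ± 123 in Villin-WlscKO tumors. Atp12a, the colonic proton-potassium pump, was 23.3 ± 13.3 and 75.6 ± 38.2 FPKM, with a log2 change of 1.73 and a limma adjusted p of 0.0481 that lay on the other side of the threshold in 7 of the 10 fits with a tumor left out and was 0.166 without Villin-WlscKO tumors 2 and 3.

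Car13, a further cytosolic carbonic anhydrase, rose from 6.66 ± 1.47 to 12.1 ± 3.03 FPKM (log2 change 0.76, limma adjusted p = 0.022), with a limma adjusted p between 0.0518 and 0.0561 when control tumor 2, 4 or 5 or Villin-WlscKO tumor 3 was left out. It was 0.113 without Villin-WlscKO tumors 2 and 3 and 0.125 with the epithelial centring (log2 change 0.35). Slc4a2, the basolateral chloride-bicarbonate exchanger and the most abundant gene of the anion list, was 43.0 ± 9.98 and 41.5 ± 3.03 FPKM (log2 change -0.03, limma adjusted p = 0.933). A further carbonic anhydrase and a further water channel, named here after their values were seen, were high in the squamous-rich tumors: Car12 was 32.0 and 27.7 FPKM in Villin-WlscKO tumors 2 and 3 and at most 4.76 in the other 8, and Aqp3 was 30.1 and 49.1 FPKM there and at most 0.314 in the other 8. All 5 Villin-WlscKO tumors, at 2.45 FPKM or more, were above the control tumors, at 1.83 FPKM or less, in Car12. Car12 had a limma adjusted p of 0.0571 with all tumors and 0.0386 without Villin-WlscKO tumors 2 and 3 (log2 changes 2.13 and 1.002). It also passed with a pseudocount of 0.1, the same FPKM sum, tumor quality weights, the epithelial centring or without Villin-WlscKO tumor 1 or 4. It did not pass in the other alternatives, among them quantile normalization (limma adjusted p = 0.0534) and the replicate block (0.0753). With 1 control tumor left out, its limma adjusted p was between 0.0833 and 0.119. Aqp3 had a limma adjusted p of 0.251.

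The genes of the table nearest to Car4 and Slc9a3, the genes with the largest log2 change in each direction, were found by the root mean square distance of log2(FPKM + 1), centred on each gene's mean, over the 10 tumors. Nearest to Car4 were Slc13a2 (distance 0.37), a carrier of dicarboxylates, Zg16 (0.42), a lectin of goblet cells, and Rep15 (0.48), and Car4 itself lay at 1.40 from its own mean. Slc13a2 was 0.598 and 0.762 FPKM in control tumors 1 and 4 and 1.26 in Villin-WlscKO tumor 2, and between 3.41 and 24.2 in the others. Nearest to Slc9a3 were Plat (0.34), which encodes tissue plasminogen activator, Tenm4 (0.34) and Etv5 (0.36), an ETS family transcription factor, and Slc9a3 lay at 0.71 from its own mean. Plat, Tenm4 and Etv5 fell, with log2 changes of -0.998, -0.78 and -0.91 and limma adjusted p of 0.0412, 0.0313 and 0.0151, whereas Slc9a3 at -0.96 missed the threshold. These 6 genes were selected for their likeness over the same tumors, and their values are a description.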

How the data were processed

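Messenger RNA of 10 AOM/DSS colon tumors was sequenced from stranded libraries. According to the labels and the methods, the authors ran FastQC on the reads, aligned them with TopHat2 2.1.1 to GRCm38.p5 and quantified transcripts with Cufflinks 2.2.1 and Cuffdiff. The values deposited by the authors are FPKM per gene name and tumor. Annotation release and use of strand in counting were not given in the sources used here. FPKM summed to between 1207683 and 1533885 per tumor. Among 1050 genes with low values at most 3 shared a ratio between tumors, so reads could not be recovered, depth is unknown and the spread between tumors gives the precision.

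Groups were compared on log2(FPKM + 1) with limma 3.58.1 (R 4.3.3), with a mean FPKM of at least 0.5, an eBayes trend and Benjamini-Hochberg adjustment over 16757 genes, and the fit was tested on simulated data. All 10 genes passed the filter. Exact two-sided permutation tests, promoter searches and figures used Python 3.11.15, numpy 2.4.6, pandas 2.3.3 and matplotlib 3.10.9. The study's own test, Cuffdiff, needs reads and was not used. Positions are GENCODE M21. The deposited names were taken as given, and 2419 of them share all values with another name, none of the 10 genes among them.

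The 10 genes, the wider transport list and the marker lists were chosen with earlier results of these data known. Named are the 10 genes, each listed transport gene past the threshold, the most abundant of each role, Wls, Xist, Eif2s3y, markers a result needs and the 3 genes nearest to Car4 and to Slc9a3. A gene of the transport list is not reported here. Any other transport gene was named after its values were seen. Of the marker lists, 0 of 5 smooth muscle, 0 of 5 fibroblast, 0 of 4 endothelial, 0 of 5 erythrocyte, 0 of 2 posterior gut and 0 of 6 squamous genes passed the threshold (limma; 0, 0, 0, 0, 1 and 0 at an unadjusted p under 0.05), 1 of 5 leukocyte genes (Cd3e) rose and 3 of 5 had an unadjusted p under 0.05, and Fabp2 alone of the small intestine list was tested and did not pass (limma adjusted p = 0.417). Alternatives were other pseudocounts, scalings, filters, variance models, weights, a replicate block and left-out tumors.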

Additional observations from a re-analysis of the deposited data

Results flagged for a closer look

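In 3 of the 40 groups of 5 tumors examined over 20 genes, 1 tumor lay far from the others by Dixon's criterion on log2(FPKM + 1), and chance alone marks about 1 in 20 groups. All 3 were control tumor 1. It held 606 FPKM of Car1 against 154 to 192 in the other 4 control tumors, and 9.25 FPKM of Car13 against 5.62 to 6.25. It held 40.2 FPKM of Slc12a2 against 56.2 to 59.3 in the others. Over the 10 fits with a tumor left out, that without control tumor 1 included, the limma adjusted p of Slc12a2 lay between 0.00352 and 0.0116.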

How the results depend on the processing

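Over the alternatives run, Slc12a2 lost its call only when tumors were centred on the colon epithelium markers, an alternative chosen after the data were seen (log2 change 0.36). That centring moved the median log2 change of all genes to -0.40, and rescaling to the same FPKM sum moved it to 0.10. With the centring, 0 of the 10 genes were called higher and 2 lower (Slc9a3, Car2), and of the 44 other transport genes 5 were called higher and 4 lower (Slc4a4, Kcnq1, Aqp11, Pde5a). The genes called over the whole table were not counted with the centring, so these counts have no share of all genes beside them. Without Villin-WlscKO tumors 2 and 3 the counts were 2 higher (Cftr added), 5 other transport genes higher and 1092 genes in all, against 1822. Quantile normalization called 1 other transport gene lower (Kcnq1). With 1 tumor left out, the counts ranged from 1 to 2 of the 10 genes higher, 5 to 10 other transport genes higher, against 7 with all tumors, 0 to 1 lower and 1231 to 1983 genes in all. The sign turned for Scnn1a (-0.092) and Fxyd3 (-0.135) with the centring and for Slc4a2 with the same FPKM sum (0.077), without control tumor 3 (0.098) and without Villin-WlscKO tumor 1 (0.001), within a range of -0.102 to 0.098 over the left-out tumors. The cause of these shifts was not tested. The labels give no pairing by tumor number. Same-numbered tumors deviated from their group means with weak correlations (-0.0868 to 0.162, 2 of 5 best with their own number). So few pairs cannot settle whether they share a batch. With a replicate block 1 of the 10 genes, 5 other transport genes and 1627 genes in all were called, with Car13 (limma adjusted p = 0.0549) and Gucy2c (0.0557) lost. Without read counts, counting error in Slc26a3, Aqp8 and Cftr, which are low in some tumors, could not be set apart from the spread between tumors.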
